A study of Mus musculus with 22 samples.

Results

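In the telencephalon of mouse embryos at embryonic day 16.5 (E16.5), 2167 regions carried a called peak of H3K9ac and none of H3K9cr. H3K9ac is acetylation, and H3K9cr crotonylation, of lysine 9 of histone H3. Peaks of 12 histone lists on chromosomes 1 to 19 and X that shared 1 bp or more were joined, which gave 112550 regions. A region was chosen by having a peak in both E16.5 H3K9ac lists and in none of the 4 H3K9cr lists of E13.5 and E16.5. Of 38881 regions with both E16.5 H3K9ac lists, these were 5.57%. They are called acetyl-only regions here, which means that no H3K9cr peak was called and not that the mark was at 0. The name says nothing about H3K18la, lactylation of lysine 18. That mark was called at 43.4% and 57.6% of these regions in replicates 1 and 2 of E16.5. The main comparison set was the 32435 regions with both H3K9ac lists and both H3K9cr lists at E16.5, called shared regions.

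The tissue was the whole telencephalon of ICR mice, an outbred strain, at E13.5 and E16.5, with no genetic change or treatment named. ChIP-seq on native, uncrosslinked chromatin covered H3K9ac, H3K9cr and H3K18la (lactylation of lysine 18) at both stages, ATAC-seq covered open chromatin at E13.5, and RNA-seq of polyA RNA covered both stages. Each group held 2 libraries stated to be biological replicates, and the sources used here do not state the number of embryos behind each. The 22 samples also included input libraries, which were not analysed here. The E16.5 lists held 49640 and 50656 H3K9ac peaks and 41063 and 42293 H3K9cr peaks, so the presence call drew on longer lists than the absence call. The E13.5 H3K9cr lists held 32556 and 28960 peaks. H3K18la replicate 1 of E16.5 stood apart from the other H3K18la lists, with 62068 peaks of a median 486 bp against 69145 to 76031 peaks of 635 to 650 bp. RNA libraries held 17059330 to 18485639 counts. CPM are read counts scaled to library size. All 10 deep-layer and 9 of 10 upper-layer cortical neuron genes of the lists used below passed the filter on low counts. So did all 13 microglia and all 10 endothelial genes, so passing the filter is no check of the tissue.

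Acetylation and crotonylation of lysine 9 cannot sit on the same lysine of the same histone tail, but a region of many cells can carry both. Some acyltransferases and deacylases handle both groups, and YEATS domain readers bind both. H3K9ac is known as a mark of active promoters and enhancers, and in the embryonic telencephalon such elements accompany the passage from dividing radial glia to neurons.

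A few acetyl-only regions covered a gene start, and their promoter sequences are shown because they differed in CpG content from those under shared regions. A CpG is a C followed by a G, and dense CpG is typical of promoters that many tissues use. The RefSeq promoter table on GRCm38.p6 gives 250 bases before to 50 bases after a start for 17274 of 21631 protein-coding genes. Of 85 genes with an acetyl-only region within 2000 bp of a start, 56 had an entry there, and an acetyl-only region overlapped the window of 18. Shown 5′ to 3′, with each CpG in capitals, are Arhgdib (chr6:136941850-136942149, minus strand), Cmtm5 (chr14:54936220-54936519, plus strand) and, as a CpG-rich contrast, Bmp8b (chr4:123104911-123105210, plus strand).
Arhgdib: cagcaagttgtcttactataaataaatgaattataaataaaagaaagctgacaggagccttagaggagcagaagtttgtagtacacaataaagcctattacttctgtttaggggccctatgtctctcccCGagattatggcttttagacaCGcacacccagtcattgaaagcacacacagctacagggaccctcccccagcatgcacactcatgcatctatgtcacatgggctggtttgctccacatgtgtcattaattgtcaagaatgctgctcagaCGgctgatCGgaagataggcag
Cmtm5: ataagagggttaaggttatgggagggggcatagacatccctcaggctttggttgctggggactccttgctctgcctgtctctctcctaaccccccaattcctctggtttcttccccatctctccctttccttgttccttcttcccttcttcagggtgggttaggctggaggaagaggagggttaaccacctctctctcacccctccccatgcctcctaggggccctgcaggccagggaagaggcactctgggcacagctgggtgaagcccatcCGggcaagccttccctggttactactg
Bmp8b: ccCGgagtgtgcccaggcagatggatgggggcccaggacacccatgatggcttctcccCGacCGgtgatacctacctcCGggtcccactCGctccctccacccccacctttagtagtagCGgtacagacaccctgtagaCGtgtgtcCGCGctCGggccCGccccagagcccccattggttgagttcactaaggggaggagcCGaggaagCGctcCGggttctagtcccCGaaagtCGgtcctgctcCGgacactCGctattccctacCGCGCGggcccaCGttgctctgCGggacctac

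The Arhgdib window held 4 CpG and the Cmtm5 window 1 CpG, against 23 CpG in the Bmp8b window, and acetyl-only regions covered all 300 bases of each. Over the 18 windows the median was 5 CpG, with a lowest of 1 and a highest of 49 CpG, the latter at Rbms1. The median was 13 CpG over all protein-coding windows, 21 CpG over the 10615 windows overlapped by shared regions and 14 CpG over the 197 windows overlapped by shared regions of weak H3K9ac, as defined further on. At most 6 CpG were found in 10 of the 18 windows (55.6%), in 35.8% of all protein-coding windows, in 6.01% of those under shared regions and in 21.3% of those under weak shared regions. Windows under acetyl-only regions were thus poorer in CpG than those under shared regions, but only 18 windows stand behind the statement and no test was run. The motif GGGCGG, searched on both strands, was in 4 of the 18 windows (22.2%) and in 46.4% of all windows. TATAAA, on both strands, was in 6 (33.3%) and in 13.4% of all windows. CAGCTG, which reads the same on both strands, was in 4 (22.2%) and in 15.4%. CCGGAAG, on both strands, was in none of the 18 and in 11.98% of all windows. Over the 197 windows under weak shared regions, the shares of these 4 motifs, in the same order, were 56.35%, 11.7%, 19.3% and 4.57%. GGGCGG and CCGGAAG each hold a CpG, so their counts move with CpG content, and a match is a description of letters and not a binding site.

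The values that chose the regions describe them as weak and short. The fold enrichment of a peak is the authors' ratio of summit signal to what their peak caller took as local background. The mean of both E16.5 H3K9ac libraries ran from 2.74 to 15.3 over acetyl-only regions, with a median of 4.26, and had a median of 13.9 in shared regions. Medians were 4.21 and 4.25 in H3K9ac replicates 1 and 2, with a pileup of 15 and 17 at the summit. The merged regions were 224 to 5744 bp long, with a median of 794 bp against 1944 bp for shared regions. The summits of both libraries lay a median of 85 bp apart, and 75.7% of pairs lay within 200 bp.

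**Figure D1:**
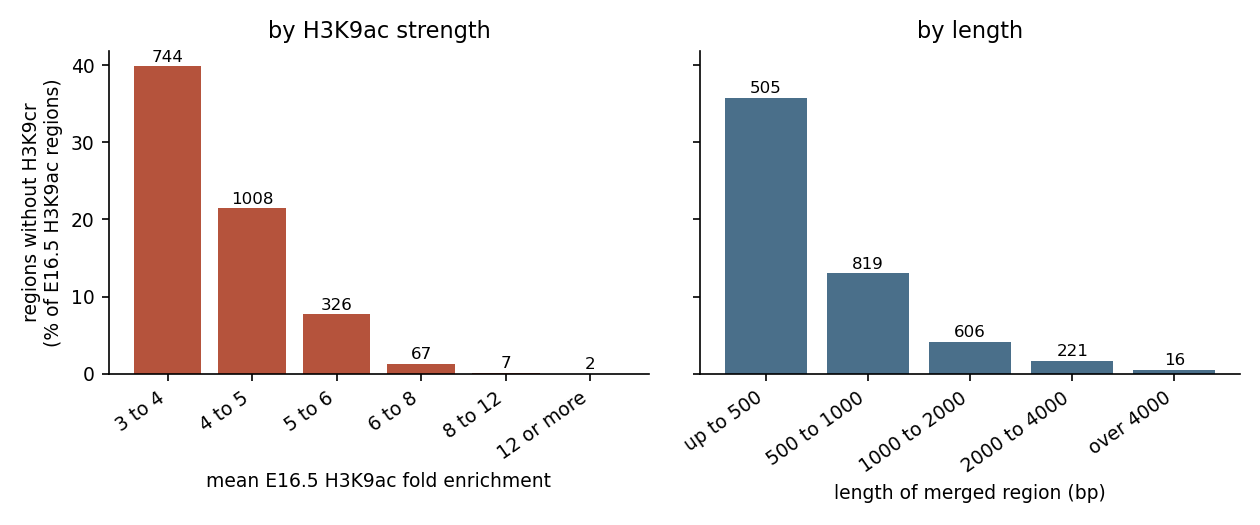
Percentage of E16.5 H3K9ac regions that lacked any H3K9cr peak, by mean E16.5 H3K9ac fold enrichment (left) and by length of the merged region in bp (right); numbers above bars are acetyl-only regions. The share fell from 39.9% at a fold enrichment of 3 to 4 to 0.0113% at 12 or more, and from 35.8% up to 500 bp to 0.496% over 4000 bp. 25 regions under 3, of which 13 were acetyl-only, are not drawn.

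The absence of an H3K9cr peak followed the strength of H3K9ac, as the plot by strength and length shows. At a fold enrichment of 3 to 4, 744 of 1865 H3K9ac regions (39.9%) were acetyl-only. The share was 21.5% at 4 to 5, 7.72% at 5 to 6, 1.257% at 6 to 8 and 0.137% at 8 to 12. At 12 or more, 2 of 17622 regions were acetyl-only. Grouped by the number of H3K9cr lists that called them, from 0 to 4, H3K9ac regions numbered 2167, 3218, 5926, 3801 and 23769, and their median fold enrichment was 4.26, 4.65, 5.68, 6.62 and 23.4. The share at a protein-coding start in the same order was 3.78%, 4.16%, 6.01%, 9.58% and 55.6%. Acetyl-only regions were therefore the lower end of a graded series, described here on the values that chose them and with no test.

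At the edge of the rule, the weakest member in H3K9ac replicate 1 was chr2:83843533-83844089, with a -log10 q of 2.04, and in replicate 2 it was chr7:3275432-3276233, with 2.02. Just outside lay 3218 regions called by a single H3K9cr list, where that H3K9cr peak had a median -log10 q of 5.69 and a median fold enrichment of 4.20. The E16.5 H3K9cr lists accounted for most of these, with 1225 from replicate 1 and 1731 from replicate 2. A further 8410 regions without H3K9cr had 1 of the 2 E16.5 H3K9ac lists. The number of members rested on single libraries: it was 6922 and 5932 without H3K9ac replicates 1 and 2 of E16.5, and 3409 and 3909 without H3K9cr replicates 1 and 2 of E16.5. With the 26442 strongest peaks of every list, so that no list was longer than another, 183 regions met the rule. That setting also drops weak H3K9cr peaks, so these can be other regions than the 2167, and how many are shared was not counted.

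The 2 strongest acetyl-only regions were narrow and lay outside genes. At chrX:97431453-97431676, a 224 bp region, H3K9ac fold enrichment was 13.5 and 17.2 in the E16.5 libraries, and ATAC peaks of 11.7 and 8.32 were called at E13.5. At chr8:94167101-94167432, 5186 bp from the start of Mt2, a metallothionein that binds zinc and other metals, H3K9ac was 14.6 and 14.1. Neither region had an H3K9ac peak at E13.5 or an H3K18la peak in any list, and the second had no ATAC peak. In both replicates each stood far above the median of the class.

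Next in strength was chr7:16134384-16135910 inside Slc8a2, a sodium-calcium exchanger of neurons, with H3K9ac at 12.1 and 10.4. It was called at E13.5 too, at 7.19 and 4.59, and in every H3K18la list, at 4.43 to 5.64. The region chr4:138652596-138653880, 28604 bp from Vwa5b1, had H3K9ac at 12.3 and 9.005 and H3K18la at 13.04 and 9.47 at E16.5, against 5.20 and 4.91 at E13.5. At chr12:86461814-86464317 inside Esrrb, an orphan nuclear receptor, H3K9ac was 9.06 and 6.74, all H3K18la lists had a peak, from 5.11 to 11.03, and ATAC peaks of 7.50 and 5.48 were called. The region chr10:116652807-116654426 between genes had H3K9ac at 10.4 and 8.96, an E13.5 H3K9ac peak in replicate 1 and an H3K18la peak in 3 lists.

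The other 4 of the 10 strongest resembled the 2 narrow regions at the top. They were chr4:136665016-136665274 inside Ephb2, a receptor of axon guidance, with H3K9ac at 9.26 and 8.19, chr3:96049013-96049375 inside Vps45 with 6.73 and 10.2, chr11:110268304-110268636 between genes with 8.42 and 8.19, and chr14:79106800-79107338 inside Vwa8 with 8.63 and 7.43. None of these had an H3K18la peak in any list or an H3K9ac peak at E13.5. ATAC peaks were called at the last pair, at 6.51 and 6.72 on chromosome 11 and at 6.68 and 7.24 on chromosome 14.

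Most acetyl-only regions had no H3K9ac peak called at the earlier stage. The E13.5 H3K9ac lists were shorter, with 37305 and 34520 peaks against 49640 and 50656 at E16.5. Peaks of E13.5 H3K9ac replicates 1 and 2 were called at 13.5% and 9.88% of acetyl-only regions, against 85.1% and 81.8% of shared regions. Neither E13.5 list called 1772 regions (81.8%), 1 list called 283 and both called 112. Because strength differed so much, shares were also set beside shared regions of like strength, those with a mean E16.5 H3K9ac fold enrichment of 4 to 6. In that range lay 1334 acetyl-only regions and 4657 shared regions, termed weak here, whose median fold enrichment still differed (4.55 and 5.19) as did their median length (847 and 1400 bp). Within it, E13.5 H3K9ac was called at 14.2% and 10.9% of acetyl-only and 49.8% and 43.1% of shared regions. The gap exceeded the spread between replicates in each set. The rule also removed regions with H3K9cr at E13.5, and with absence asked for at E16.5 only, the mean share at acetyl-only regions was 18.3% in place of 11.7%. With the same number of peaks in every list the mean share was 18.9%, over 183 regions that can be other regions. Classes share their libraries, and regions are not replicates, so differences between classes are given per library with no test.

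**Figure D2:**
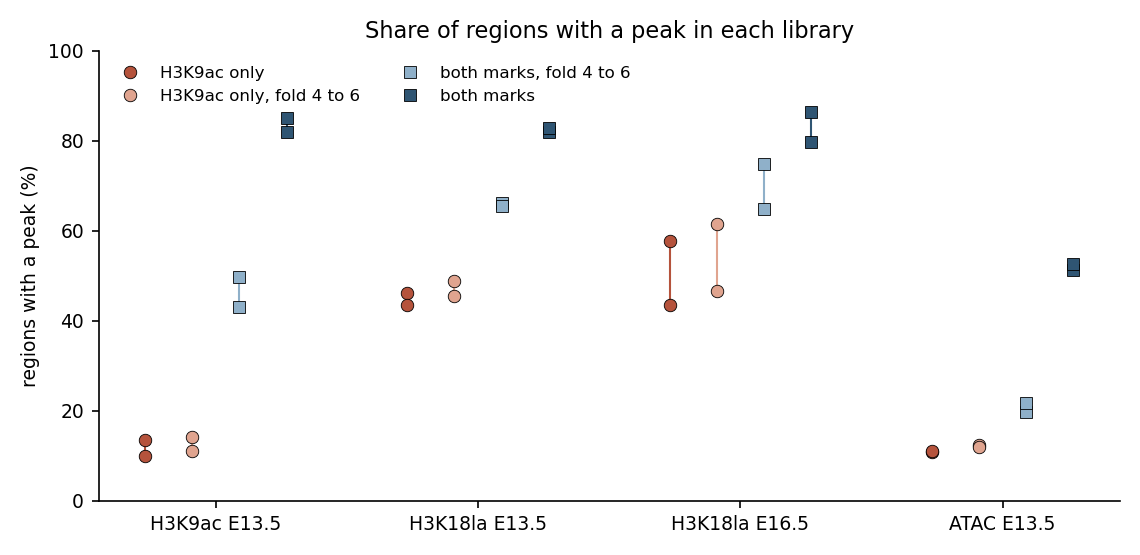
Percentage of regions with a called peak in each library, with 1 point per library and a line joining the 2 replicates of a group. Circles are acetyl-only regions (2167, and 1334 with a fold enrichment of 4 to 6) and squares are regions with both marks (32435, and 4657 in that range); E13.5 H3K9ac and ATAC points of acetyl-only regions lie below both sets of squares in every library.

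H3K18la, which the rule used only to draw the borders of regions, was common in the class. It was called at 46.1% and 43.5% of acetyl-only regions at E13.5, then at 43.4% and 57.6% at E16.5. Means were 44.8% ± 1.89 and 50.5% ± 10.1 (SD, n = 2), a difference that did not exceed the spread between libraries (exact permutation test over libraries, two-sided p = 1, where 0.333 is the smallest p possible). Shares at shared regions were 82.0% and 82.9% at E13.5, then 79.6% and 86.4% at E16.5, in the same libraries. At a fold enrichment of 4 to 6, shares in the same order were 48.8%, 45.5%, 46.6% and 61.5% of acetyl-only and 66.3%, 65.5%, 64.7% and 74.9% of shared regions. Every library thus called a smaller share of acetyl-only than of shared regions, also in that range.

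Length moved with that gap. Among regions of 4 to 6 in fold enrichment that were also 500 to 1000 bp long, a range chosen after the data were seen, 506 were acetyl-only and 1271 shared. There H3K18la was called at 32.0% and 27.5% of acetyl-only regions at E13.5, then 31.6% and 55.3% at E16.5, against 31.2%, 31.8%, 30.3% and 44.4% of shared regions, so the sign of the difference varied by library. E13.5 H3K9ac stayed lower in acetyl-only regions, at 8.70% and 6.72% against 31.9% and 26.1%. ATAC stayed lower as well, at 8.10% and 7.31% against 12.7% and 11.4%.

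Acetyl-only regions with H3K18la were longer than those without, in part because H3K18la peaks entered the merge. The 659 with no H3K18la peak in any list (30.4%) had a median length of 453 bp, and the 584 with a peak in all 4 lists (26.9%) one of 1676 bp. Median H3K9ac fold enrichment was 4.15 and 4.35 in these sets. H3K18la in all 4 lists was found at 20.3% of the regions without E13.5 H3K9ac, 51.9% of those with 1 E13.5 list and 69.6% of those with both. Where called, H3K18la peaks had a median fold enrichment between 4.58 and 4.68 in the 4 libraries.

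The highest E16.5 H3K18la among acetyl-only regions was at chr9:53846988-53850162, 89 bp from the start of Sln, a small inhibitor of the calcium pump of muscle. H3K18la was 12.3 and 10.1 at E13.5, then 9.40 and 13.4 at E16.5, beside H3K9ac of 6.66 and 3.997 at E13.5, then 6.04 and 7.94 at E16.5. Sln RNA was 3 or 4 counts in each of the 4 libraries and was not tested. Inside Samd5, chr10:9392150-9394387 had H3K18la at 5.24 and 4.21 at E13.5, then 9.20 and 12.8 at E16.5, and H3K9ac at 5.61 and 5.89. Inside St6galnac3, chr3:153242108-153243045 had an H3K18la peak in 1 of 2 lists at E13.5, at 7.59, and in both at E16.5, at 9.89 and 11.9. At chr3:66194603-66195816 inside Veph1, H3K18la was 7.91 and 10.5 at E13.5, then 9.64 and 12.2 at E16.5.

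Open chromatin at E13.5 was called at few acetyl-only regions. ATAC replicates 1 and 2 had a peak at 10.7% and 11.03% of them, and at 51.3% and 52.6% of shared regions, and no ATAC data of E16.5 were analysed here. At a fold enrichment of 4 to 6 the shares were 12.4% and 11.9% of acetyl-only and 19.8% and 21.8% of shared regions. Both lists called 124 acetyl-only regions (5.72%), and 82 of these had H3K18la in all 4 lists. Over the 183 regions that met the rule with the same number of peaks in every list, which can be other regions, the mean ATAC share was 23.2%. The 5 regions with the highest ATAC enrichment lay 14653 to 271038 bp from the nearest protein-coding start. The first of them, chr3:153805834-153807151, had ATAC peaks of 9.92 and 16.1 beside H3K9ac of 3.93 and 4.61, and chr1:175127276-175128696 inside Rgs7, a regulator of G protein signalling in neurons, had ATAC peaks of 12.2 and 10.8 beside H3K9ac of 5.33 and 4.10. The other 3, at chr6:66223609-66225096, chr6:57859110-57859819 and chr2:139310062-139313011, had ATAC peaks of 9.81 to 12.8 and H3K9ac of 3.75 to 4.56. All 5 had a peak in every H3K18la list.

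Acetyl-only regions lay away from gene starts. A protein-coding start lay within 2000 bp of 82 (3.78%, 95% Wilson interval 3.06% to 4.67%), against 42.6% of shared regions. At a fold enrichment of 4 to 6 the shares were 3.45% and 9.34%. At 500 to 1000 bp in length and 4 to 6 in fold enrichment the shares were 3.75% and 17.1%. Another 98 lay at a lncRNA start only, 1277 (58.9%) lay inside protein-coding genes away from a start and 808 (37.3%) lay between genes, where the 98 are counted among the last 2 sets. The nearest protein-coding start was a median of 50199 bp away, against 7809 bp for shared regions, and at a fold enrichment of 4 to 6 the medians were 53012 and 41106 bp. The nearest H3K9cr peak was a median of 10446 bp away, and 7.34% of acetyl-only regions had one within 1000 bp. Start positions came with strand for genes in the promoter table, and for other genes either end was taken as a start, which can raise these shares.

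H3K18la and ATAC differed by position. At starts, H3K18la was called at 29.3% and 32.9% of acetyl-only regions at E13.5, then 31.7% and 37.8% at E16.5. Inside genes the shares were 41.1%, 38.6%, 37.0% and 51.4%, and between genes 55.8%, 52.2%, 54.7% and 69.6%, so each library gave the same order. ATAC followed, with 6.10% and 7.32% at starts, 8.30% and 8.93% inside genes and 15.0% and 14.7% between genes. Weak shared regions had the same order in H3K18la, from 23.0% to 30.8% at starts up to 73.6% to 84.2% between genes. Median length rose in this order too, from 547.5 to 743 and 971.5 bp in acetyl-only regions. In weak shared regions it rose from 897 to 1386 and 1575.5 bp. The shares by position were not adjusted for length.

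The longest acetyl-only region was chr5:133803967-133809710, 5744 bp between genes, with H3K9ac at 3.19 and 4.35 and H3K18la between 6.84 and 10.2. The next, chr17:27313283-27318751 and chr4:62869666-62874808, had H3K9ac of 2.94 and 3.17, and 3.25 and 5.38. Each of these 3 regions had a peak in every H3K18la list.

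RNA of genes at the regions was compared between the stages. RNA counts of whole tissue cannot tell fewer cells of a type from less RNA per cell. A gene counted as called with an edgeR adjusted p under 0.05, and 28.4% of 16237 tested genes were called higher and 29.2% lower at E16.5. Of 85 genes with an acetyl-only region within 2000 bp of a start, 83 had RNA values and 59 passed the filter on low counts. Of the 59, 30 (50.8%) were higher and 9 (15.3%) lower at E16.5, with a median log2 change of 0.41 against 0.00 over the 15776 tested genes with a symbol. Over 2-fold higher were 13 (22.0%), against 12.99% of tested protein-coding genes, and 1 (1.69%) was over 2-fold lower, against 4.17%. The count called higher was 34 of 59 with upper-quartile scaling and 23 of 63 with DESeq2, and the shares over all genes in these fits are not given here. Median log2 changes were 0.51 and 0.33, against 0.0951 and 0.0675 over all genes of each fit. When 1 library was left out, the median of the genes at the regions was 0.33 to 0.44. With the distance set to 500 bp, 16 of 22 tested genes were called higher and none lower by edgeR, with none lower at an unadjusted p under 0.05 either. DESeq2 called 11 of 26 higher and none lower, again without the share over all genes in that fit, so an excess cannot be read from it. Of the 85 genes, 56 had a start with strand. For the others either end of the gene counted as a start, so some of these regions can lie at a 3′ end, also within 500 bp.

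**Figure D3:**
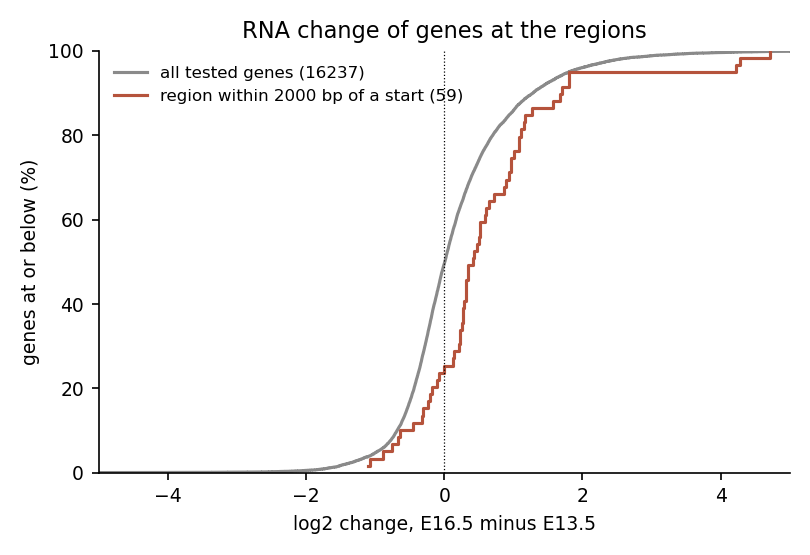
Cumulative percentage of genes by log2 RNA change, E16.5 minus E13.5, for all 16237 tested genes (grey) and the 59 tested genes with an acetyl-only region within 2000 bp of a start (red); the axis is limited to changes of at most 5 in size. The red curve lies to the right of the grey one over most of the range and has a median of 0.41.

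Markers of other cell types also moved with stage, and their part in these counts was not tested. Of the lists used, 10 of 10 tested endothelial markers were higher at E16.5, 12 of 13 of microglia, 6 of 7 of pericytes, 8 of 10 of astrocytes, 5 of 8 of the oligodendrocyte lineage, 5 of 7 of erythroid cells, 2 of 7 of meninges and 1 of 3 of choroid plexus. Their summed levels were 115 to 128 CPM at E13.5 and 461 to 467 CPM at E16.5 for endothelium, and 84.1 to 84.5 and 181 to 187 CPM for microglia. For pericytes they were 221 to 231 and 358 to 365 CPM, for astrocytes 466 to 469 and 1108 to 1225 CPM, and for the oligodendrocyte lineage 100.2 to 108 and 181 to 199.8 CPM. Erythroid markers summed to 1450 to 1538 and 2664 to 3598 CPM, meningeal ones to 63.2 to 94.9 and 179 to 209 CPM, and choroid plexus ones overlapped at 19.3 to 38.1 and 19.96 to 40.3 CPM. Of all these markers, Ly6c1 and Folr1 stood at 0 in at least 1 library.

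**Figure D4:**
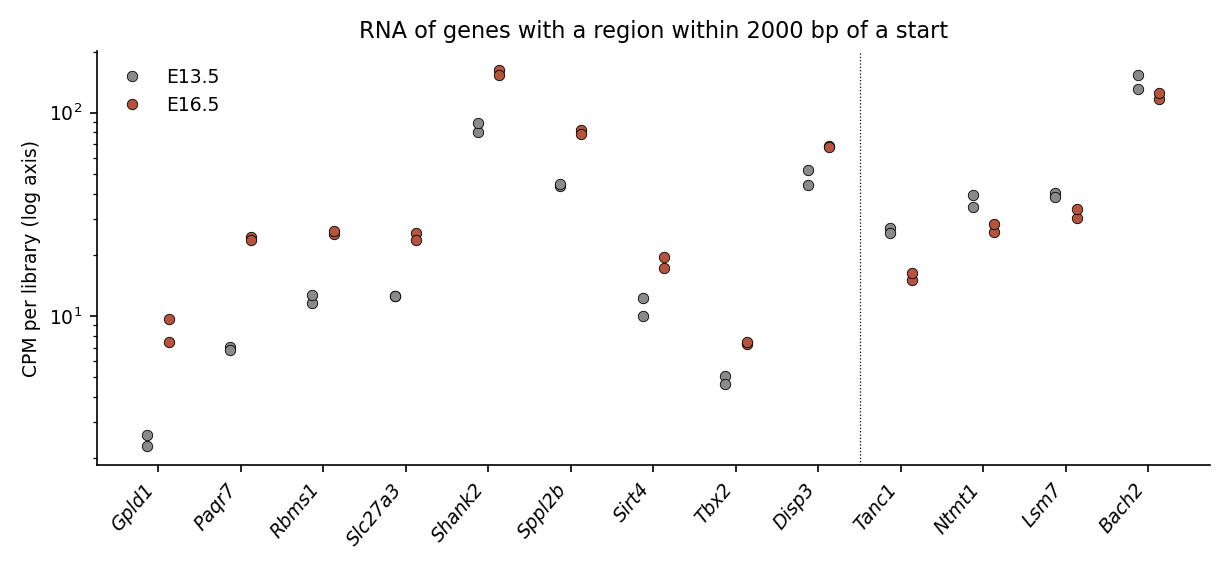
RNA level in CPM on a log axis in each of the 2 libraries of E13.5 (grey) and E16.5 (red), for 13 genes at acetyl-only regions named by rule. Genes left of the dotted line rose and genes right of it fell, and the stages do not overlap for any of them.

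The named rises are shown in the plot of CPM by library. Gpld1 (ENSMUSG00000021340.13), a phospholipase that frees anchored surface proteins, was at 2.28 and 2.59 CPM at E13.5, then 9.67 and 7.47 CPM at E16.5 (log2 change 1.81, edgeR adjusted p = 0.000264). Its region, chr13:24942574-24942866, lay 286 bp from the start, had no H3K18la peak at E16.5 and was not called for H3K9ac at E13.5. Paqr7 (ENSMUSG00000037348.15), a membrane progestin receptor, was at 7.03 and 6.78 CPM and then 24.6 and 23.65 CPM (log2 change 1.80, edgeR adjusted p = 7.05e-06). Its region, chr4:134494961-134495559, had H3K18la in both E16.5 lists. Shank2 (ENSMUSG00000037541.21), a scaffold of excitatory synapses, was at 80.5 and 89.3 CPM and then 163 and 153 CPM (log2 change 0.90, edgeR adjusted p = 1.49e-05). Its region, chr7:144425771-144426518, covered an end of the gene that was taken as a start without strand, so it can be the 3′ end. The stages did not overlap for these 3 genes.

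A further 6 rises met the same rule and are given here. Rbms1, an RNA-binding protein, rose from 12.1 ± 0.690 to 25.8 ± 0.716 CPM (mean ± SD, n = 2), with chr2:60881658-60882002 at 220 bp. Slc27a3, of a family that activates fatty acids, rose from 12.5 ± 0.0247 to 24.6 ± 1.41 CPM, and Sppl2b, a protease that cuts within membranes, from 44.2 ± 0.787 to 80.3 ± 2.59 CPM. Sirt4, a mitochondrial sirtuin, rose from 11.2 ± 1.61 to 18.4 ± 1.55 CPM. Disp3 rose from 48.3 ± 5.56 to 68.1 ± 0.967 CPM. Tbx2, a T-box transcription factor, rose from 4.84 ± 0.292 to 7.39 ± 0.104 CPM, but its call was lost with DESeq2 and without E13.5 replicate 2 or either E16.5 replicate.

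Of the falls that met the rule, 4 are given here. Tanc1, a scaffold of the postsynaptic density, fell from 26.5 ± 1.03 to 15.7 ± 0.972 CPM (log2 change -0.76, edgeR adjusted p = 0.000386, n = 2). Ntmt1, a methyltransferase of protein N termini, fell from 37.0 ± 3.57 to 27.1 ± 1.90 CPM. Lsm7, of an RNA-processing ring, fell from 39.4 ± 1.28 to 31.9 ± 2.17 CPM, and Bach2, a transcription factor, from 142 ± 15.4 to 121 ± 5.33 CPM. The call of Lsm7 was lost with upper-quartile scaling, with DESeq2 and without E13.5 replicate 1, and that of Bach2 with upper-quartile scaling, without E13.5 replicate 1 and without E16.5 replicate 1. Sppl2b and Lsm7 share the region chr10:80857027-80857705, and their RNA went opposite ways. These 4 falling genes had their region 1467 to 1818 bp from the start.

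Of the 85 genes, 47 also had a region with H3K9ac and at least 1 H3K9cr list at a start, and 38 did not. Among the 38, 16 were tested, 8 were higher, 2 were lower and the median log2 change was 0.95. Among the 47, 43 were tested, 22 were higher, 7 lower and the median was 0.31. The difference between these sets was not tested. The 38 were mostly genes of low RNA in this tissue, and those that rose are named here after their values were seen, since all but Gpld1 lay under the level set for named genes. Sardh, a mitochondrial enzyme of sarcosine breakdown, was at 2.46 and 1.87 CPM and then 7.93 and 5.89 CPM, and its region covered the start. Cilp2, an extracellular matrix protein, was at 2.28 and 2.10 CPM and then 5.87 and 3.98 CPM. Emcn, a sialomucin of endothelium, was at 1.32 and 1.82 CPM and then 3.24 and 3.43 CPM.

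Arhgdib, a GDP dissociation inhibitor of blood cells whose promoter is printed above, was at 2.46 and 2.26 CPM and then 4.47 and 4.74 CPM (log2 change 0.96, edgeR adjusted p = 0.00951), with H3K18la in both E16.5 lists. Cd40, a receptor of immune cells, was at 1.14 and 1.16 CPM and then 2.402 and 2.23 CPM. Cmtm5, whose window with 1 CpG is printed above, had 1 and 0 counts at E13.5, then 17 and 17 counts at E16.5 (edgeR adjusted p = 0.00191). Ap1m2, a clathrin adaptor subunit of epithelia, had 1 and 0 counts and then 13 and 11 counts. The 2 that fell were Bach2 and Hvcn1, a proton channel, from 4.98 and 5.51 CPM to 2.91 and 2.78 CPM. Bmp8b, the CpG-rich contrast, had 1 and 11 counts at E13.5, then 0 and 7 counts at E16.5 and was not tested.

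Most acetyl-only regions lay inside longer genes. A region lay in the body or within 2000 bp of 1099 protein-coding genes, 216 of them with at least 2 and 75 with at least 3 regions. Their median length was 125 kb, against 17.3 kb over all 21631 protein-coding genes, and 1042 (94.8%) also held a shared region. The same share over all protein-coding genes, or over genes of like length, was not counted. Of 957 tested, 441 (46.1%) were higher and 233 (24.3%) lower at E16.5, with a median log2 change of 0.23. The share called higher depended on length in all genes. Among genes of up to 20 kb, 40.5% of 79 with a region and 24.9% of 5725 without were higher, and at 50 to 100 kb it was 42.4% of 177 and 32.1% of 1816. At 200 to 500 kb the shares were 47.2% of 231 and 48.8% of 406, and over 500 kb 67.8% of 90 and 68.0% of 100, so the excess was present below 200 kb and not above.

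**Figure D5:**
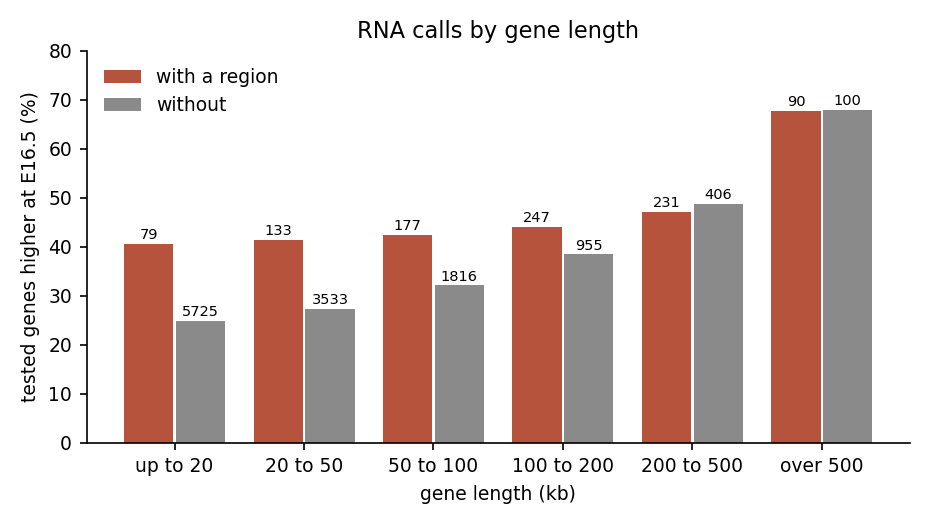
Percentage of tested protein-coding genes called higher at E16.5 by gene length in kb, with (red) and without (grey) an acetyl-only region in the body or within 2000 bp; numbers above bars are tested genes. Red bars are higher in the 4 classes up to 200 kb, and the bars of the 2 longest classes are nearly level.

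The 10 genes with most acetyl-only regions held 5 to 8 each. Dscaml1 (ENSMUSG00000032087.10, chr9:45427433-45753713), a cell adhesion protein of neurons, held 8, with fold enrichments of 3.16 to 5.10, of which 6 had no H3K9ac peak at E13.5, beside 18 shared regions. Its RNA was 113 and 108 CPM at E13.5, then 211 and 222 CPM at E16.5, with no overlap (log2 change 0.97). Cdh4, a cadherin, held 6 regions, all without E13.5 H3K9ac, and rose from 146 ± 3.004 to 242 ± 6.10 CPM. Grid1, a glutamate receptor of the delta type, also held 6 and rose from 10.3 ± 1.84 to 29.1 ± 0.981 CPM.

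With 5 regions each, Nav2, a protein of neurite growth, rose from 61.2 ± 5.16 to 187 ± 16.01 CPM, Rbfox1, a neuronal splicing factor, from 46.1 ± 5.22 to 92.6 ± 6.95 CPM, and Sdk1, an adhesion protein of synapses, from 12.8 ± 0.528 to 22.5 ± 1.90 CPM. Mad1l1, of the spindle checkpoint, fell from 37.9 ± 0.234 to 23.3 ± 0.917 CPM. Dab1, the adaptor of reelin signalling, was at 146 ± 8.83 and 162 ± 1.34 CPM (edgeR adjusted p = 0.0505) and Enox1 at 56.7 ± 1.13 and 59.9 ± 0.740 CPM, neither of them called. RNA of Aff3, which also held 5, was not analysed here.

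Gene lists of the tissue were set beside the regions, with 32 of 206 listed genes (15.5%) holding an acetyl-only region, against 5.08% of all protein-coding genes. Genes with a region had a median length of 125 kb against 17.3 kb over all protein-coding genes. These 2 shares were not adjusted for gene length, so they do not show a link to the lists. Of 20 synapse genes, 7 held a region and all 6 of these that were tested rose, as did 18 of 19 tested synapse genes in all. Median log2 changes were 1.21 and 1.17 for the 6 and the 19. Gria1, an AMPA receptor subunit, rose from 74.7 ± 4.10 to 196 ± 16.5 CPM. Grin2a, an NMDA receptor subunit, rose from 1.64 ± 0.993 to 5.16 ± 0.676 CPM. Of 16 axon growth and guidance genes, 6 held a region, 4 of which rose and 1 fell, and in the whole list 11 rose and 3 fell. Nrp1, a semaphorin receptor, rose from 65.9 ± 9.22 to 134 ± 0.795 CPM, Ncam1, an adhesion protein, from 409 ± 20.6 to 819 ± 41.4 CPM, and Robo2, a slit receptor, from 249 ± 5.73 to 407 ± 2.81 CPM.

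Genes of cortical layers held regions in both directions of change. Of 10 deep-layer genes, 5 held a region, of which 2 rose and 3 fell, and in the whole list 5 rose and 5 fell. Sox5, a transcription factor of early-born neurons with 4 acetyl-only and 24 shared regions, fell from 228 ± 12.5 to 110 ± 8.25 CPM, Nfia fell from 214 ± 0.173 to 110 ± 0.613 CPM and Ldb2 rose from 17.4 ± 1.54 to 38.0 ± 5.10 CPM. Of 10 upper-layer genes, 3 held a region, and in the whole list 7 rose and 1 fell. Mef2c, which drives neuronal maturation genes, rose from 54.8 ± 0.271 to 208 ± 13.2 CPM, Cux2 rose from 138 ± 1.73 to 244 ± 5.15 CPM, and Cux1 at 269 ± 7.98 and 273 ± 7.01 CPM was not called. Foxp1, the single gene with a region among 15 of the inhibitory and ventral list, rose from 79.0 ± 5.54 to 173 ± 7.40 CPM. In that whole list 5 rose and 8 fell.

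Of 16 radial glia genes, 3 held a region, and in the whole list 3 rose and 11 fell. Ptprz1, a receptor phosphatase, rose from 494 ± 24.8 to 747 ± 39.3 CPM. Gli3, of hedgehog signalling, fell from 141 ± 1.87 to 42.7 ± 1.42 CPM, and Hopx at 3.55 ± 0.580 and 4.42 ± 1.09 CPM was not called. Mfng, a modifier of Notch, fell from 103 ± 6.39 to 41.8 ± 0.658 CPM. It was the single one with a region among 10 intermediate progenitor genes, all of which fell. In glial and vascular lists, Slc6a11, a GABA transporter of astrocytes, rose from 9.38 ± 0.531 to 111 ± 13.1 CPM, and Slco1c1, a thyroid hormone transporter of vessels, from 4.10 ± 0.525 to 61.9 ± 6.59 CPM. Dcn, a matrix proteoglycan of meninges, at 0.621 ± 0.369 and 0.993 ± 0.0605 CPM was not called. No gene of the oligodendrocyte, microglia, pericyte, erythroid, choroid plexus or housekeeping lists, of 5 to 13 genes each, held a region.

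Of 26 writers, erasers and readers of lysine 9 acyl groups, 3 held an acetyl-only region, all 26 had a shared region at a start, and 15 of the 24 tested fell by edgeR. A shared region also lay at a start of 13857 of 21631 protein-coding genes and of all 12 housekeeping genes listed. Of these 12 housekeeping genes, 9 fell too, and 32.5% of all tested protein-coding genes fell. Cdyl, a crotonyl-CoA hydratase that lowers histone crotonylation, held 1 region and fell from 12.5 ± 0.383 to 6.81 ± 0.387 CPM (log2 change -0.88, edgeR adjusted p = 0.00107). Mllt3, a YEATS domain reader of acetyl and crotonyl lysine, was at 118 ± 7.20 and 132 ± 9.08 CPM (edgeR adjusted p = 0.0712). Kat6b, an acetyltransferase, held 2 regions, and its RNA was not analysed here.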

How the data were processed

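Samples were grouped by the labels, with replicate numbers as labelled. The submitters' processing notes name GRCm38, Bowtie2 2.4.1 and MACS2 2.2.7.1, and each library has its own peak list. Each peak has, per the file headers, a signal (pileup height at the summit, scaling not stated), a -log10 p-value and q-value, and a ratio (fold enrichment). Every list ended just above a -log10 q of 2. The sources used here state no read depth, control or duplicate handling for the lists. The authors deposited expected counts per gene, for which the submitters' processing notes name Salmon 1.1.0.

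Peaks were merged as described in the report, and gene positions came from RefSeq (GRCm38.p6). Rounded counts were tested with edgeR 4.0.16 (quasi-likelihood, TMM, filterByExpr, 2 residual degrees of freedom) in R 4.3.3, with Benjamini-Hochberg adjustment over all 16237 tested genes, after a test on simulated data. DESeq2 1.42.0 was an alternative. Regions, gene lists and tests were chosen with earlier results of these data known.

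Named regions were the 10 highest in E16.5 H3K9ac, the 5 highest in H3K18la and in ATAC (both lists called), the 5 highest without E13.5 H3K9ac and the 3 longest. Named genes were up to 10 rises and 10 falls at starts (adjusted p under 0.05, mean of at least 5 CPM, no overlap), the 5 genes with most regions and ties, and up to 3 per list with the largest change. Intervals cover counting error only. Some genes that met these rules are not reported here, though they stay in every count.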

Additional observations from a re-analysis of the deposited data

How the results depend on the processing

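Peak calls near the threshold decide membership, read depth behind the lists is unknown, and 2 libraries per group allow no firm test. The number of regions, 2167, was 961 with a -log10 q of at least 5 for H3K9ac and 183 with the same number of top peaks in each list, and 2224 to 6922 without 1 H3K9ac or H3K9cr library. The mean ATAC share, 10.9%, was 10.6% with a -log10 q of at least 3 in every list, 13.8% with 5 for H3K9ac, 9.92% with a 50% overlap, 9.87% with a merge of E16.5 H3K9ac and H3K9cr only, 12.1% with absence at E16.5 only, 23.2% with equal lists, 12.1% at a fold enrichment of 4 to 6, 7.71% with the length range added, and 7.89% to 12.6% without 1 library. The mean share with E13.5 H3K9ac, 11.7%, was 7.96% with 5 for H3K9ac, 19.4% with the E16.5 merge, 18.3% with absence at E16.5 only, 18.9% with equal lists, 7.71% with the length range, and 6.93% to 15.4% without 1 library. The mean H3K18la share at E16.5, 50.5%, moved by more than its SD in 1 setting, and ran from 35.7% to 57.6% without 1 library. The share at a start, 3.78%, was 2.81% with 5 for H3K9ac, 1.75% within 500 bp and 8.31% within 5000 bp, and 3.78% to 4.74% without 1 library. Other settings left these shares within their SD or interval. The cause of these shifts was not tested, beyond the change of peaks, distance or regions that each setting makes.

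Genes called higher and lower, 30 and 9, were 16 and 0 within 500 bp (22 tested), 72 and 26 within 5000 bp (145 tested) and 8 and 2 without a region of both marks at the start (16 tested), where fewer or more genes enter by construction. They were 34 and 7 with upper-quartile scaling, 23 and 7 with DESeq2, 31 and 9 without the filter and 21 to 26 and 7 to 9 without 1 library. The shares called over all genes in these fits are not given here. Same-numbered RNA libraries deviated together with a correlation of 0.12 over 16237 genes, but 2 pairs and no stated litter do not pair them, and with a replicate block the counts were 30 and 9. All 17 genes at starts that met the naming rule kept their direction in every setting.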

Other observations

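Acetyl-only regions were spread unevenly over chromosomes. On autosomes they made up 4.04% (chromosome 19) to 6.71% (chromosome 9) of E16.5 H3K9ac regions, and on X 2.35%, that is 20 of 850. The strongest acetyl-only region of all was among these 20.

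Promoters of lncRNA genes under acetyl-only regions resembled lncRNA promoters in general. Over the 26 such windows the median was 4 CpG, as over all 9520 lncRNA windows, and 69.2% held at most 6 CpG, against 70.0% of all lncRNA windows, 29.0% under shared regions and 62.5% under weak shared regions.

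Where ATAC peaks were called at acetyl-only regions, their summits lay a median of 198 and 183 bp from the summit of H3K9ac replicate 1 of E16.5, against 261 and 265 bp in shared regions. At a fold enrichment of 4 to 6 these medians were 201 and 180 bp in acetyl-only and 216 and 219 bp in shared regions. Regions of the classes differ in length, which was not adjusted for here.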
